A study of Mus musculus with 4 samples.

Results

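The aldehyde dehydrogenases described here are 10 mouse genes, Aldh1a1, Aldh1a7, Aldh1b1, Aldh1l1, Aldh2, Aldh3a2, Aldh4a1, Aldh6a1, Aldh8a1 and Aldh9a1, taken by gene symbol from the 17406 genes and other features measured in liver. The livers came from 2 Cyp3a-/- mice, which lack the Cyp3a cluster, and 2 wild type mice. Each liver was hybridised to its own array, and the series speaks of independent experiments with different animals. Sex, age, strain and feeding state of the mice are not given in the sources used here. Single-gene p-values measure only how these 4 livers vary. All 11 probes that map to the 10 genes were well above background on all 4 arrays, and none was saturated or marked as an outlier.

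Aldehyde dehydrogenases oxidise aldehydes to acids with NAD or NADP and are abundant in hepatocytes. Some clear reactive aldehydes from alcohol, lipids and drugs. Others carry out 1 fixed step of a pathway: retinoic acid synthesis, carnitine synthesis, the breakdown of proline, valine or tryptophan, or folate one-carbon metabolism. Aldh1a1 and its rodent copy Aldh1a7 are known in mouse liver to respond to activators of CAR, the receptor that also controls Cyp2b and Cyp3a genes.

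Aldh1a1 and Aldh1a7 are neighbouring genes on chromosome 19 with similar start regions, and these are shown because both genes had higher signals in the Cyp3a-/- livers. Aldh8a1 is shown because it holds the same octamer, and Aldh1b1 because its genotype difference was the largest of the 10. Each line gives the 250 bases before a RefSeq transcript start of GRCm38.p6, read 5′ to 3′ on the gene's strand. Capitals mark the octamer ATGCAAAT and the CCAAT box, each searched on both strands.
Aldh1a1 (the more downstream of 2 listed starts, chr19:20601718-20601967, plus strand): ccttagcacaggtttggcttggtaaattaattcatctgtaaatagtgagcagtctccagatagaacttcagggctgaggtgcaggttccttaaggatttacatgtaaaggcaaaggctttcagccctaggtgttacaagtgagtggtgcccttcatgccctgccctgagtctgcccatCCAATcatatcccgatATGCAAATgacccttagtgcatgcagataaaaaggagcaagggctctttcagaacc
Aldh1a7 (chr19:20727557-20727806, minus strand): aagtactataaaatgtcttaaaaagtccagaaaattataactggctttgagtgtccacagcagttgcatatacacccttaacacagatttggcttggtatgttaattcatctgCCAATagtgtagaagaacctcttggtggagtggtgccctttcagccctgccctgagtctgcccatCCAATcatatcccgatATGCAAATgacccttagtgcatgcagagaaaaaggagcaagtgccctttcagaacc
Aldh8a1 (chr10:21377050-21377299, plus strand): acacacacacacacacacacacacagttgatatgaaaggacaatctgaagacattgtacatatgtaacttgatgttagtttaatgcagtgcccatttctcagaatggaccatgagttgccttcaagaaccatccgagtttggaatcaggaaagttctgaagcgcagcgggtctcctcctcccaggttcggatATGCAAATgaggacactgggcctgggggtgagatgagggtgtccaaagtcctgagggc
Aldh1b1 (chr4:45798772-45799021, plus strand): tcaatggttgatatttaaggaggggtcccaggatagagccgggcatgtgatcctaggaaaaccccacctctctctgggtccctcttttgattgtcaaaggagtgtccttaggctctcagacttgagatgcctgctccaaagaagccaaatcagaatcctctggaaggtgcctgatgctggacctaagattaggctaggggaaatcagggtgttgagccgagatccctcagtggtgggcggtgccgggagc

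The Aldh1a1 and Aldh1a7 windows aligned over 175 bases with 160 identical (91.4%), and they shared an unbroken run of 65 bases that lay 94 to 30 bases before the start. That run holds both marked motifs, with the octamer beginning 56 bases before each start. In Aldh8a1 the octamer begins 58 bases before the start. The upstream start listed for Aldh1a1 has neither motif. RefSeq start regions were matched for 9 of the 10 genes, as 11 windows (Aldh2 was not matched). The octamer was present in 3 of the 11 windows and in 1.60% of 32851 mouse windows of this length. Those of Aldh1a1 and Aldh1a7 lie in the run that the 2 genes share and are not separate finds. These shares therefore cannot be read as an enrichment. The CCAAT box was present in 8 of 11, against 33.8% of all windows. The letters AGGTCA, a core sequence bound by many nuclear receptors, occurred in 2 of the 11 windows, those of Aldh1l1 and of the downstream start of Aldh6a1, and in 14.0% of all windows. Also searched were TATAAA, found only in the Aldh1a7 window (12.4% of all windows), and AGTTCA, found in no window of the family (11.8% of all windows). A match is a run of letters and not a measured binding site. The array's probes are sequences of the transcripts and not of these windows.

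The share of probes detected well above background ran from 54.4% to 56.4% over the arrays, and the processed intensity at the 75th percentile from 308 to 352. Saturated spots numbered 0 on each array. Signals below are log2 intensities after subtraction of that percentile for each array, and differences are taken as Cyp3a-/- minus wild type. Cyp3a11, the main Cyp3a transcript of mouse liver, was at least 7204-fold lower in Cyp3a-/- livers, where its probe was not well above background on either array. The probe passed the filter on dim probes only through the wild type livers. Its limma fit over all features (adjusted p = 1.4e-05) rests on the undetected Cyp3a-/- values. The Cyp3a-/- livers were hybridised on slides 2 and 3, while slide 1 carried both wild type livers. No slide held both genotypes, and slide cannot be told apart from genotype in any difference below.

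None of the 10 genes passed the threshold of an adjusted p of 0.05 in limma (0 higher and 0 lower), where 0.276% of all features did, 0.178% higher and 0.0977% lower. Before adjustment 4 of the 10 had a p under 0.05, Aldh1b1, Aldh1a1, Aldh4a1 and Aldh1a7, all of them higher in Cyp3a-/- livers. Over all features 4.60% were higher and 5.42% were lower at that p. The count of 4 changed with the setting and was 2 with quantile normalization. Aldh1a7 was at its edge, since the unadjusted 95% interval of that gene touched 0. Log2 differences were above 0 for 9 of the 10 genes and for 51.4% of all features. Both Cyp3a-/- livers lay above both wild type livers for 6 genes, a pattern held by 22.5% of all features, and none (0) showed the opposite pattern (20.2% of all features). The median log2 difference of the 10 genes was 0.25, beside 0.01 over all features, and it was 0.13 with quantile normalization. The lowest adjusted p of the 10 was 0.254.

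**Figure D1:**
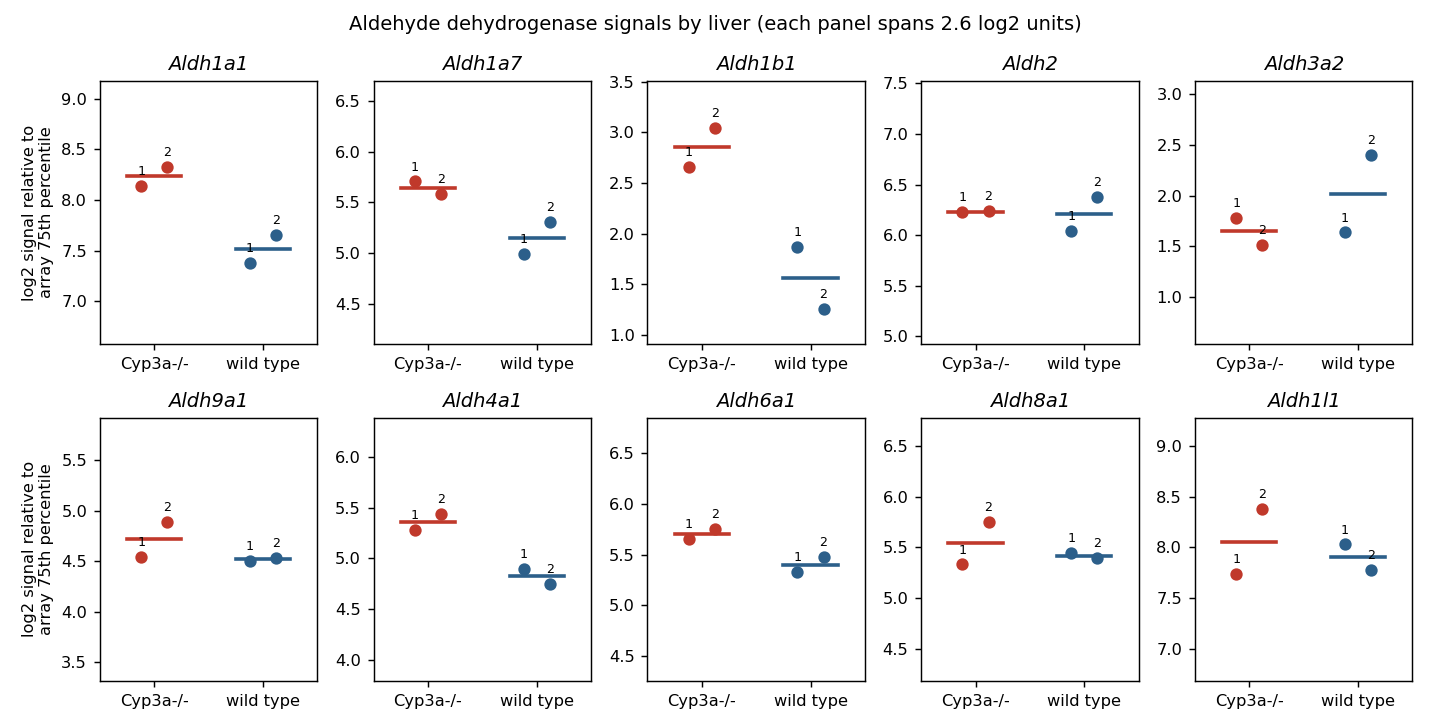
Scaled log2 signal, with the 75th percentile of an array at 0 (vertical axis), of each aldehyde dehydrogenase in the Cyp3a-/- livers (red) and the wild type livers (blue); points are single livers with their replicate number and bars are genotype means. The genotypes are apart for Aldh1b1, Aldh1a1, Aldh4a1 and Aldh1a7, and by less for Aldh6a1 and Aldh9a1, while they overlap for the other 4 genes.

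Aldh1b1 had the largest difference of the family. It encodes a mitochondrial enzyme that oxidises acetaldehyde and retinaldehyde. Its log2 signal was 2.66 and 3.05 in the Cyp3a-/- livers and 1.87 and 1.25 in the wild type livers. Both Cyp3a-/- livers thus lay above both wild type livers, by at least 0.80, a gap wider than the difference within either pair (0.39 in Cyp3a-/- and 0.61 in wild type). The processed intensities behind these values were 1987 and 2547 in Cyp3a-/- livers and 1137 and 841 in wild type livers. The log2 difference was 1.29 ± 0.28 (SE, n = 2 per genotype; 95% interval 0.61 to 1.98), or 2.45-fold, and did not pass the threshold over all features (limma adjusted p = 0.254). It was 0.99 without wild type 2 and 1.60 without wild type 1. Of 14 alternative settings, only median scaling took it past the threshold (1.33, limma adjusted p = 0.00193), and that setting called 659 features in place of 48.

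The genes whose values over the 4 arrays lay nearest to those of Aldh1b1, after each gene was centred on its mean, were Clic5, Dck and DXBay18, among 12580 named genes. The Euclidean distances were 0.06, 0.16 and 0.17 log2 units. Clic5 encodes a chloride intracellular channel protein and Dck deoxycytidine kinase. Clic5 stood at 1.24 ± 0.27 and Dck at 1.21 ± 0.29 (log2 difference, SE, n = 2 per genotype), and neither passed (limma adjusted p = 0.260 and 0.291). With 4 arrays such likeness is a description only.

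Aldh1a1 encodes the cytosolic retinaldehyde dehydrogenase that makes retinoic acid. Its log2 signal was 8.14 and 8.33 in the Cyp3a-/- livers and 7.38 and 7.65 in the wild type livers. The genotypes did not overlap, and the gap of 0.49 between them was wider than the difference within either pair (0.18 in Cyp3a-/- and 0.27 in wild type). The log2 difference was 0.72 ± 0.20 (SE, n = 2 per genotype; 95% interval 0.22 to 1.21), or 1.64-fold, and did not pass (limma adjusted p = 0.338).

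Aldh1a7 had log2 signals of 5.71 and 5.59 in the Cyp3a-/- livers and 4.99 and 5.31 in the wild type livers. The genotypes did not overlap, but the gap of 0.28 was narrower than the difference between the wild type livers (0.32). The log2 difference was 0.50 ± 0.20 (SE, n = 2 per genotype; 1.41-fold; limma adjusted p = 0.499). Aldh1a1 and Aldh1a7 are close copies, and their probe sequences were not used here, so how far each probe also detects the other transcript was not tested and the values are uncertain as those of single genes.

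Aldh2, the mitochondrial enzyme that clears most acetaldehyde in liver, showed almost the same mean in both genotypes. The log2 signal of Aldh2 was 6.23 and 6.24 in the Cyp3a-/- livers and 6.04 and 6.38 in the wild type livers, so the Cyp3a-/- values fell between the wild type ones. Its log2 difference was 0.02 ± 0.20 (SE, n = 2 per genotype; 95% interval -0.47 to 0.51; limma adjusted p = 0.983), and its sign turned with normexp and with quantile normalization. Aldh2 lies on chromosome 5, as does the Cyp3a cluster.

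Aldh3a2 was the 1 gene of the 10 with a lower mean in Cyp3a-/- livers. It encodes the membrane-bound fatty aldehyde dehydrogenase, whose loss in humans causes Sjögren-Larsson syndrome. Log2 signals of Aldh3a2 were 1.78 and 1.51 in the Cyp3a-/- livers and 1.64 and 2.40 in the wild type livers, and the genotypes overlapped. The log2 difference of -0.37 ± 0.30 (SE, n = 2 per genotype; 95% interval -1.11 to 0.37; limma adjusted p = 0.705) rested on wild type 2. Without that liver it was 0.01.

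Aldh9a1 oxidises trimethylaminobutyraldehyde on the route to carnitine. Log2 signals were 4.54 and 4.89 in the Cyp3a-/- livers and 4.51 and 4.53 in the wild type livers. The genotypes were apart by only 0.01, since Cyp3a-/- 1 lay beside the wild type livers. A log2 difference of 0.20 ± 0.20 (SE, n = 2 per genotype; limma adjusted p = 0.767) did not pass and was 0.02 without Cyp3a-/- 2.

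**Figure D2:**
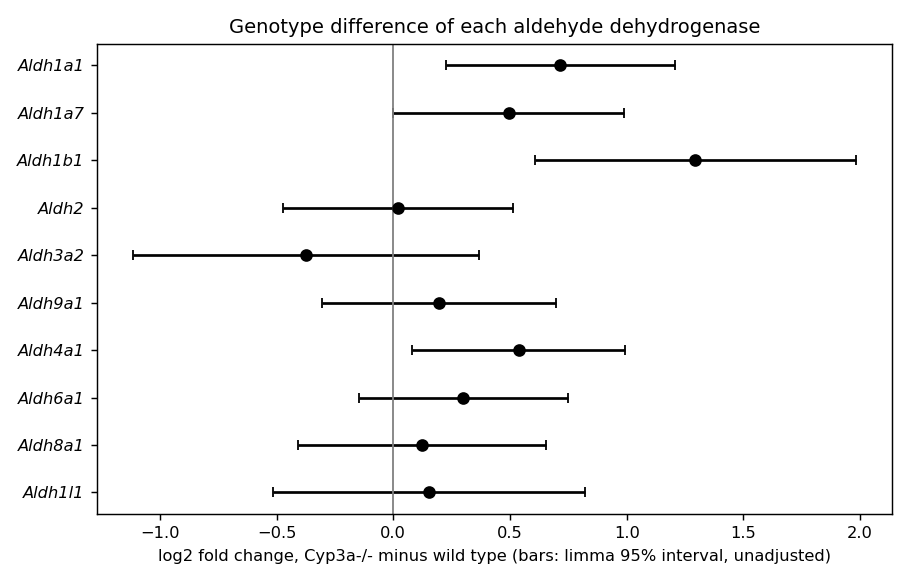
Log2 difference, Cyp3a-/- minus wild type (horizontal axis), of the 10 aldehyde dehydrogenases, with limma's unadjusted 95% interval as bars. The interval lies above 0 for Aldh1b1, Aldh1a1 and Aldh4a1, touches 0 for Aldh1a7 and spans it for the other 6, and no gene passed after adjustment over all features.

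Aldh4a1, Aldh6a1 and Aldh8a1 act in amino acid breakdown. Aldh4a1 oxidises glutamate semialdehyde to glutamate, the last step of proline breakdown. Its log2 signal was 5.28 and 5.44 in the Cyp3a-/- livers and 4.90 and 4.74 in the wild type livers. The genotypes did not overlap, and the gap of 0.38 was wider than the difference within either pair (0.16 in Cyp3a-/- and 0.15 in wild type). The log2 difference was 0.54 ± 0.18 (SE, n = 2 per genotype; 95% interval 0.08 to 0.99), or 1.45-fold, and did not pass (limma adjusted p = 0.438).

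Aldh6a1 is the methylmalonate semialdehyde dehydrogenase of valine and pyrimidine breakdown and the 1 member with 2 probes. The brighter probe had log2 signals of 5.65 and 5.75 in the Cyp3a-/- livers and 5.33 and 5.48 in the wild type livers. The other probe had 1.57 and 1.57 in the Cyp3a-/- livers and 1.20 and 1.42 in the wild type livers. On both probes the Cyp3a-/- livers lay above the wild type livers, and the log2 differences were 0.30 ± 0.18 and 0.26 ± 0.18 (SE, n = 2 per genotype), neither past the threshold (limma adjusted p = 0.627 and 0.676 over all probes). Taken singly, 0 of the 11 probes of the 10 genes passed, beside 0.270% of all probes.

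Aldh8a1, assigned to the oxidation of aminomuconate semialdehyde in tryptophan breakdown, had log2 signals of 5.33 and 5.75 in the Cyp3a-/- livers and 5.44 and 5.39 in the wild type livers. The wild type values fell between the Cyp3a-/- ones, and the log2 difference was 0.12 ± 0.21 (SE, n = 2 per genotype; 95% interval -0.41 to 0.65; limma adjusted p = 0.870). Its start region shares the octamer with Aldh1a1 and Aldh1a7. Whether the differences of these genes are unequal was not tested.

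Aldh1l1, the cytosolic formyltetrahydrofolate dehydrogenase, had log2 signals of 7.74 and 8.38 in the Cyp3a-/- livers and 8.03 and 7.78 in the wild type livers. The highest and the lowest value both came from Cyp3a-/- livers. The log2 difference was 0.15 ± 0.27 (SE, n = 2 per genotype; 95% interval -0.52 to 0.82; limma adjusted p = 0.872), and it was -0.17 without Cyp3a-/- 2.

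The family did not sit evenly over the 4 livers. Cyp3a-/- 2 held the highest value of the 4 livers for 7 of the 10 genes, and wild type 1 held the lowest for 5. These counts were not taken over all features, so how usual they are on these arrays is not known. Relative to each gene's mean over the 4 livers, the median of the 10 genes was 0.05 in Cyp3a-/- 1 and 0.27 in Cyp3a-/- 2, against -0.19 in wild type 1 and -0.09 in wild type 2. Over all features the same medians lay between -0.02 and 0.02. Without Cyp3a-/- 1 the median difference of the 10 genes was 0.40, and without Cyp3a-/- 2 it was 0.14. The livers of a pair differed by a median of 0.23 for these genes in Cyp3a-/- and 0.26 in wild type, beside 0.25 and 0.20 over all features.

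Markers of hepatocytes and their zones were summed on the linear scale of signal over the 75th percentile. The 6 hepatocyte markers summed to 2020 and 2135 in Cyp3a-/- livers and to 2097 and 1829 in wild type livers, and the 8 periportal markers to 835 and 986 in Cyp3a-/- livers and to 835 and 837 in wild type livers. For the pericentral markers, 7 of 8 measured, the sums were 636 and 771 in Cyp3a-/- livers and 639 and 594 in wild type livers. Hepatocyte, pericentral and periportal sums were thus all highest in Cyp3a-/- 2, the liver that was also highest for most of the 10 genes. Linear sums follow the brightest markers of a list, and most of the pericentral sum was Cyp2e1. Its log2 signals were 9.06 and 9.27 in Cyp3a-/- livers and 9.11 and 8.98 in wild type livers. The median log2 difference was 0.27 over the measured pericentral markers, 0.09 over the hepatocyte markers and 0.09 over the periportal markers. The stellate cell sum, 8 markers, was 40.3 and 43.4 in Cyp3a-/- livers and 50.9 and 46.6 in wild type livers, and the Kupffer cell sum, 7 markers, was 30.4 and 32.4 in Cyp3a-/- livers and 36.2 and 38.2 in wild type livers. The sum of 3 erythroid markers was 34.3 and 57.6 in Cyp3a-/- livers and 68.2 and 80.3 in wild type livers. These last 3 sums were lower in both Cyp3a-/- livers than in either wild type liver. Sums overlapped between genotypes for sinusoidal endothelium (33.9 and 30.9 in Cyp3a-/- livers, 38.0 and 29.0 in wild type livers), cholangiocytes (1.25 and 1.05, against 0.954 and 1.51 in wild type livers) and lymphocytes (3.91 and 2.98, against 4.05 and 3.12 in wild type livers). No marker in any of these lists passed limma's threshold (0 higher and 0 lower). The part of zone or cell makeup in the differences above was not tested, and in whole liver fewer cells of a type and less RNA per cell cannot be told apart.

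Outside these 10 genes, 4 of 9 other Aldh genes had a probe above background. Aldh7a1, the lysine-pathway enzyme, stood at 0.19 ± 0.18, Aldh16a1 at 0.02 ± 0.19, Aldh5a1, which oxidises succinate semialdehyde, at -0.10 ± 0.20 and Aldh3b1 at -0.12 ± 0.19 (log2 difference, SE, n = 2 per genotype). None passed (0 of 4, and 0 at an unadjusted p under 0.05, in limma). Aldh7a1 had a second, dimmer probe, which stood at -0.02 ± 0.19 (log2 difference, SE) with overlapping genotypes. Aldh1a2, Aldh1a3, Aldh1l2, Aldh3b2 and Aldh18a1 were not well above background on both arrays of either genotype.

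The pathways in which the 10 enzymes work were followed through 121 other genes, of which 117 were measured. None passed limma's threshold (0 higher, 0 lower), beside 0.276% of all features, and at an unadjusted p under 0.05 there were 6 higher and 4 lower, beside 4.60% and 5.42% of all features. Their median log2 difference was 0.13, beside 0.01 over all features. Differences were above 0 for 80 of the 117 genes, beside 51.4% of all features. Both Cyp3a-/- livers lay above both wild type livers for 38 (22.5% of all features), and 14 showed the opposite pattern (20.2% of all features).

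**Figure D3:**
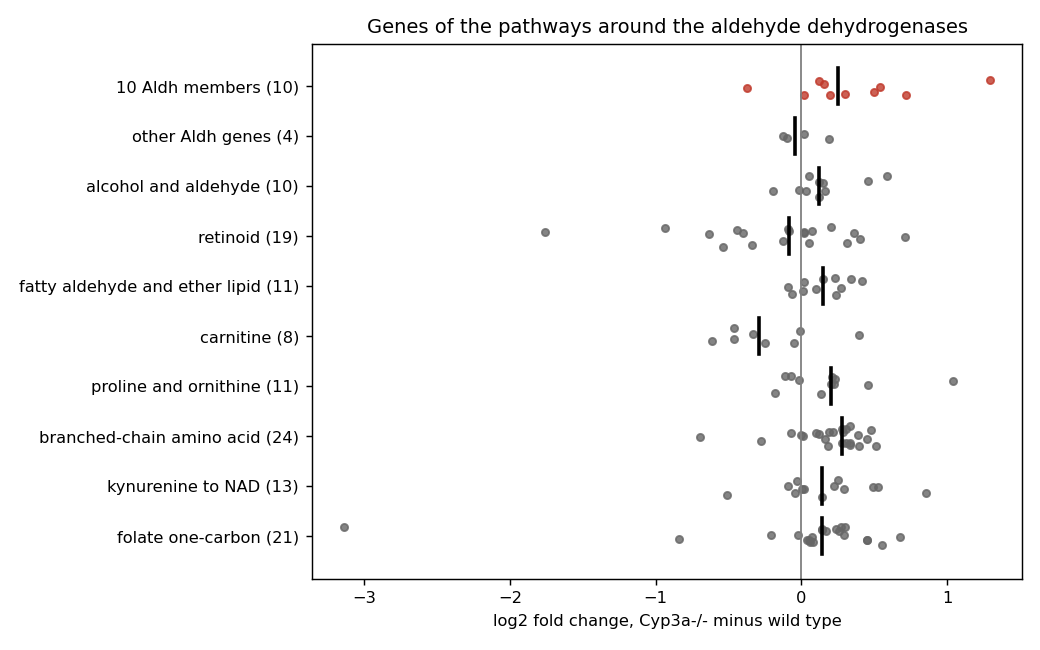
Log2 difference, Cyp3a-/- minus wild type (horizontal axis), of each measured gene in the aldehyde dehydrogenase family (red) and in the lists of pathway genes (grey), with the number measured in brackets and black bars at each list's median. Medians lie between -0.29 for carnitine genes and 0.28 for branched-chain amino acid genes, and the point at -3.14 is the fitted value of Mthfd1l, whose probe both Cyp3a-/- arrays left short of well above background.

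Enzymes that make or remove simple aldehydes gave 0 of 10 past the threshold, with a median of 0.12. Adh1, the main liver alcohol dehydrogenase, had log2 signals of 8.29 and 8.36 in Cyp3a-/- livers and 8.24 and 8.31 in wild type livers. The smallest p values of the list belonged to Adh5, which clears formaldehyde bound to glutathione, at 0.46 ± 0.18, to Adh7 at 0.58 ± 0.29 and to the reductase gene Akr7a5 at 0.16 ± 0.18 (log2 difference, SE, n = 2 per genotype). Adh5 had signals of -0.57 and -0.59 in Cyp3a-/- livers and -0.97 and -1.10 in wild type livers, and the genotypes did not overlap (limma adjusted p = 0.487). In this list both Cyp3a-/- livers lay above both wild type livers for 5 of 10 (22.5% of all features) and below them for 0 (20.2%). Adh7 was dim, with -3.69 and -4.33 in Cyp3a-/- livers and -4.81 and -4.37 in wild type livers. Its probe was well above background on only 3 of the 4 arrays.

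Retinoid genes, the setting of Aldh1a1, gave 0 of 19 past the threshold, with a median of -0.09. Log2 differences were above 0 for 9 and below for 10, beside 51.4% above 0 over all features. Dhrs9, a retinol dehydrogenase, stood at -0.94 ± 0.27, with signals of -4.04 and -4.02 in Cyp3a-/- livers and -2.75 and -3.43 in wild type livers. Bco1, which splits beta-carotene into retinaldehyde, stood at -0.63 ± 0.19, with -2.62 and -2.36 in Cyp3a-/- livers and -1.87 and -1.84 in wild type livers. Rarb, a retinoic acid receptor whose gene is itself switched on by retinoic acid, stood at 0.71 ± 0.27, with -0.57 and 0.01 in Cyp3a-/- livers and -0.81 and -1.16 in wild type livers. The genotypes did not overlap for any of these 3 genes, and none passed (limma adjusted p = 0.352, 0.373 and 0.475). They were named for the smallest p of the list, a choice that favours genes whose genotypes are apart. Over the list, both Cyp3a-/- livers lay above both wild type livers for 3 of 19 (22.5% of all features) and below them for 4 (20.2%).

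In the proline and ornithine list around Aldh4a1, 0 of 11 passed, 7 log2 differences were above 0 and 4 below, beside 51.4% above 0 over all features, and the median was 0.20. Oat, ornithine aminotransferase, which makes the substrate of Aldh4a1 from ornithine and is also a pericentral marker, stood at 1.04 ± 0.29, with signals of 5.58 and 6.26 in Cyp3a-/- livers and 4.70 and 5.06 in wild type livers (limma adjusted p = 0.344). Prodh, which supplies that substrate from proline, was 4.52 and 5.64 in Cyp3a-/- livers and 5.07 and 4.64 in wild type livers, and the genotypes overlapped. Agxt2 stood at 0.46 ± 0.23 and Pycrl at 0.21 ± 0.18 (log2 difference, SE).

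In the list of branched-chain amino acid and pyrimidine breakdown, 0 of 24 passed, 20 log2 differences were above 0 and 4 below, beside the same 51.4% over all features, and the median was 0.28. The 3 of smallest p were Mccc1, a subunit of the leucine-pathway carboxylase, at 0.47 ± 0.18, Mcee, an epimerase of the propionate pathway, at 0.51 ± 0.22 and Abat, a transaminase of the pyrimidine branch, at 0.45 ± 0.20 (log2 difference, SE, n = 2 per genotype; limma adjusted p = 0.475, 0.531 and 0.535). Hibch and Hibadh, which act just before Aldh6a1 on valine, stood at 0.31 ± 0.17 and 0.39 ± 0.20.

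For the kynurenine route from tryptophan to NAD, 0 of 13 passed and the median was 0.14. Nnmt, which methylates nicotinamide, stood at 0.85 ± 0.30, Acmsd, whose product is the substrate assigned to Aldh8a1, at 0.53 ± 0.19 and Nmnat1 at -0.51 ± 0.23 (log2 difference, SE, n = 2 per genotype; limma adjusted p = 0.451, 0.453 and 0.554). Acmsd had signals of 0.40 and 0.61 in Cyp3a-/- livers and 0.04 and -0.08 in wild type livers, without overlap. Both Cyp3a-/- livers lay above both wild type livers for 4 of the 13 genes (22.5% of all features) and below them for 1 (20.2%).

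Among carnitine genes 1 of 8 differences was above 0 and 7 were below, beside 51.4% above 0 over all features. The median was -0.29 and 0 passed the threshold. Cpt1a, the gate of fatty acid entry into mitochondria, stood at -0.46 ± 0.21, the carnitine transporter gene Slc22a5 at -0.62 ± 0.29 and Tmlhe, the first enzyme of carnitine synthesis, at 0.39 ± 0.22 (log2 difference, SE, n = 2 per genotype; limma adjusted p = 0.551, 0.561 and 0.614). Bbox1, which acts after Aldh9a1, had 3.94 and 4.04 in Cyp3a-/- livers and 3.80 and 4.29 in wild type livers. For the fatty aldehyde and ether lipid genes around Aldh3a2, 0 of 11 passed and the median was 0.14, with Sgpl1, which releases a fatty aldehyde from sphingosine phosphate, at 0.34 ± 0.18, Agps at 0.27 ± 0.17 and Sphk2 at 0.42 ± 0.27.

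Of the folate one-carbon genes around Aldh1l1, 0 of 21 passed, and the median was 0.14. Differences were above 0 for 17 of them, beside 51.4% of all features. Mthfd1l, the mitochondrial formyltetrahydrofolate synthetase, passed the filter on dim probes only through the wild type livers. Its log2 signal was -5.55 and -6.33 in Cyp3a-/- livers, where its probe was not well above background on either array, and -3.23 and -2.37 in wild type livers. This put it at least 4.0-fold lower in Cyp3a-/- livers, without passing the threshold (limma adjusted p = 0.079, a fit that rests on the undetected Cyp3a-/- values). Mthfd2l, a mitochondrial methylenetetrahydrofolate dehydrogenase, stood at 0.45 ± 0.19 (log2 difference, SE, n = 2 per genotype; limma adjusted p = 0.518).

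**Figure D4:**
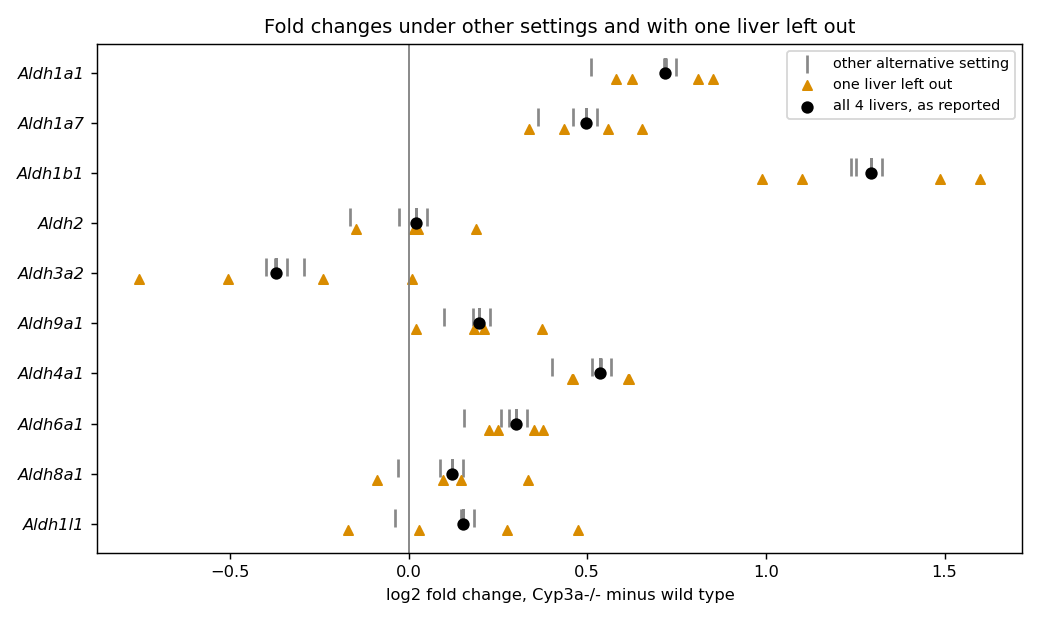
Log2 difference, Cyp3a-/- minus wild type (horizontal axis), of each aldehyde dehydrogenase with all 4 livers (black), with 1 liver left out (orange triangles) and under the other settings (grey bars). Aldh1b1, Aldh1a1, Aldh4a1, Aldh1a7, Aldh6a1 and Aldh9a1 stay above 0 in all 14 alternatives, while Aldh2, Aldh3a2, Aldh8a1 and Aldh1l1 cross 0. The genotypes do not overlap for the 6 genes that stay above 0, so leaving out 1 liver could not turn their sign. Filter and block settings gave each member the same log2 difference as the main fit and could not turn it either.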

How the data were processed

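Total RNA from 2 Cyp3a-/- and 2 wild type livers was labelled with Cy3 and hybridised to 1-colour Agilent arrays, 1 per liver, per the labels' protocols. The authors deposited scanner output whose software, per the submitters' processing notes, was Agilent Feature Extraction 11.5.1.1. The processed intensity in it had background subtracted and was detrended, with no scaling between arrays, per the file headers. A table of log2 values, also deposited, comes without a stated scale or centring. Its columns correlated at 1.00 with the scanner values once these were scaled and each probe was centred on its median, so both were inferred from that comparison, and its column medians were -0.02 and 0.02 (Cyp3a-/-) and 0.06 and -0.07 (wild type).

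From these files, the log2 of processed intensity was computed and the 75th percentile over 39429 non-control probes subtracted per array. Control and outlier spots were left out. A probe was kept when both arrays of a genotype, either one, had it well above background (21508 probes). Probes were named by RefSeq accession through a gene table of GRCm38.p6 (28025 named, 11404 not), and a gene was represented by its kept probe of highest mean signal, which gave 17406 features. Cyp3a-/- and wild type were set against each other with lmFit and eBayes of limma 3.58.1, run in R 4.3.3 (2-sided, Benjamini-Hochberg over all features, threshold 0.05, 3.54 prior and 2 residual degrees of freedom), and the code was tested on simulated data. Intervals are limma's 95% intervals, not adjusted for the number of features. Precision is limited by having 2 arrays of each genotype.

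Named genes are the 10 members with every probe, the other measured Aldh genes, of each pathway list those past the threshold or else the 3 of smallest p, and the 3 genes most like the member of smallest p. A gene that this rule names is not reported here. Adh1, Prodh, Hibch, Hibadh and Bbox1 fall outside the rule and were chosen after their values were seen, for their steps beside a member. Cyp26b1 is named because an alternative called it, and Cyp2e1 for its weight in a marker sum. Members and lists were chosen with earlier results of these data known. Alternatives were normexp on median pixel and local background intensity (the files used hold no mean spot intensity), quantile and median scaling, no filter and a stricter filter, the mean of a gene's probes, the deposited log2 table, the replicate number or slide as a block, and leaving out each liver. For the slide block the correlation within a slide (0.35) was a moment estimate, since limma's duplicateCorrelation gave none with 4 arrays. Same-numbered livers did not deviate together (correlation of their deviations from the genotype means -0.10).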

Additional observations from a re-analysis of the deposited data

How the results depend on the processing

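With all 4 livers 48 of 17406 features passed limma's threshold, 31 higher and 17 lower in Cyp3a-/- livers. The count was 33 with normexp, 40 with quantile normalization, 47 with the mean of a gene's probes, 48 with the deposited log2 table, 13 with no filter (4 higher, 9 lower), 9 with probes above background on all 4 arrays and 33 with slide as a random block. Median scaling gave 659 (388 higher, 271 lower), where limma's fit gave all features 1 variance. Leaving out 1 liver gave 7 to 506: 94 without Cyp3a-/- 1, 506 without Cyp3a-/- 2, 8 without wild type 1 and 7 without wild type 2, where the lone liver is assumed to vary like the other pair. With the replicate number as a block the count was 58, and with crossed numbers, chosen after seeing the data, 56; the numbers are not taken as a pairing.

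None of the 10 aldehyde dehydrogenases passed in 13 of 14 alternatives, and median scaling called 1, Aldh1b1, also when each probe was taken alone (1). The median log2 difference of the 10 genes, 0.25, was 0.13 with quantile normalization and 0.40 without Cyp3a-/- 1, and ran from 0.14 to 0.40 over the fits that leave out 1 liver. The sign turned for Aldh2 (-0.027 with normexp, -0.16 with quantile normalization, -0.15 without wild type 1), Aldh1l1 and Aldh8a1 (-0.039 and -0.030 with quantile normalization, -0.17 and -0.089 without Cyp3a-/- 2) and Aldh3a2 (0.0089 without wild type 2). With 1 liver left out the log2 difference ran from -0.15 to 0.19 for Aldh2, -0.17 to 0.47 for Aldh1l1, -0.089 to 0.33 for Aldh8a1 and -0.75 to 0.0089 for Aldh3a2. Of the 117 pathway genes, 3 passed with median scaling (Cyp26b1 at -1.73, Mthfd1l at -3.11 and Oat at 1.07), 1 with crossed numbers (Mthfd1l), and 0 to 2 when 1 liver was left out (1 without Cyp3a-/- 1, 2 without Cyp3a-/- 2). Each Mthfd1l call rests on Cyp3a-/- values from a probe that was not well above background on either Cyp3a-/- array. Its fitted differences are thus not measured sizes. With the main setting, only the bound of at least 4.0-fold lower in Cyp3a-/- livers can be given. Cyp26b1 had log2 signals of -2.17 and 1.23 in Cyp3a-/- livers and 1.49 and 1.09 in wild type livers. The genotypes overlapped, and its log2 difference with all 4 livers, -1.76 ± 1.04 (SE, n = 2 per genotype), rested on Cyp3a-/- 1. Except where a setting uses fewer samples or features, the cause of a result that changed with the setting was not tested.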
